A study of Mus musculus with 4 samples.

Results

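The genes described here are the ATP-binding cassette (ABC) genes of the mouse, taken as every row whose symbol begins with Abc and continues with a subfamily letter from a to g and a number. The rule found 50 genes among the 21878 rows of the deposited tables: 16 of subfamily A, 10 of B, 10 of C, 4 of D, 1 of E, 3 of F and 6 of G. Related ABC genes with other names (Tap1, Tap2 and Cftr) are not members and are given only beside them. The RNA came from liver progenitor-like cells in culture, adult liver cells brought into proliferation in transition and expansion media. They fell into 2 groups, HepLPC, grown from hepatocytes (n = 2 libraries), and NPC_LPC, grown from the non-parenchymal fraction of the liver (n = 2 libraries). All mice were C57BL/6, and the labels give an age of 6 to 8 weeks. The protocol names tdTomato mice given AAV8-TBG-Cre, a virus whose promoter is active in hepatocytes, as the source of hepatocytes, and AlbCreERT/R26GFP mice, whose Cre is driven by albumin regulatory sequence, as the source of non-parenchymal cells. If the mice were used in that order, mouse line and virus go with the group and cannot be told apart from origin. Since the HepLPC cell type label names non-parenchymal cells beside hepatocytes, the titles alone set the groups. No label says whether the replicates were separate mice or cultures, so p-values measure only the spread between these libraries, which may be technical.

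ABC proteins share a nucleotide-binding domain that hydrolyses ATP. Most members join it to membrane-spanning segments and move lipids, bile salts, drug conjugates, peptides or metal-containing cofactors across a membrane. In hepatocytes, one set sits in the canalicular membrane and secretes bile, and others face the blood and export conjugates when bile flow is blocked. Members of subfamilies E and F have no membrane segments and act in ribosome recycling and translation, so they are ABC genes but not transporters.

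The libraries held 17575998 to 20625957 counts, and ABC genes took 0.242% to 0.296% of them. CPM below are counts per 1000000 of the library total after TMM scaling, and a count of 3 equals 0.149 to 0.169 CPM, a floor that covers counting error only. Of the 50 members, 30 had enough counts for the edgeR quasi-likelihood test between the groups. No member passed it at an adjusted p of 0.05 (0 of 30) where 53 of all 12332 tested genes, or 0.43%, did (0.227% higher and 0.203% lower in HepLPC). At an unadjusted p under 0.05, 7 of the 30 members (23.3%) stood out, close to the 21.9% of all tested genes (10.4% higher and 11.5% lower). Abcc3, Abca4, Abcd3 and Abcf2 were higher in HepLPC among these, and Abcc4, Abca1 and Abcc1 were lower. DESeq2 tested 33 members and called 3 (9.09%), Abcc3 higher and Abcc4 and Abca1 lower in HepLPC, against 11.7% of all genes it tested (5.39% higher and 6.27% lower), while limma-voom called 0 members. Exact permutation of 4 libraries in 2 equal groups gives p = 0.333 at the lowest, and was not run gene by gene.

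The values of both HepLPC libraries lay on one side of both NPC_LPC libraries for 14 of the 30 tested members (46.7%), against 56.4% of all tested genes. HepLPC was above in 10 of them (33.3%, against 27.9% of all genes) and below in 4 (13.3%, against 28.6% of all genes). The fitted log2 fold change, HepLPC over NPC_LPC, was above 0 for 22 members and below 0 for 8. Its median over the members was 0.37, beside -0.0030 over all tested genes. That median was 0.57 without NPC_LPC replicate 1 and 0.094 without NPC_LPC replicate 2. Replicate 2 of NPC_LPC stood apart in several members named below, among them Abcc2, Abcc3, Abcc4 and Abca8b. It was also the one library with counts of the myofibroblast genes Acta2 (46), Col1a2 (28) and Col3a1 (21), which had none in the other 3. Some other genes of the same marker list were not confined to that library. Col1a1 had 73 and 32 counts in HepLPC replicates 1 and 2, against 50 and 238 in NPC_LPC replicates 1 and 2. In the same order, Des had 14 and 24 against 13 and 3, and Dcn 7 and 1 against 26 and 6. Whether these marker values bear on the ABC values was not tested. In bulk RNA, fewer cells of a type and less RNA per cell cannot be told apart.

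**Figure D1:**
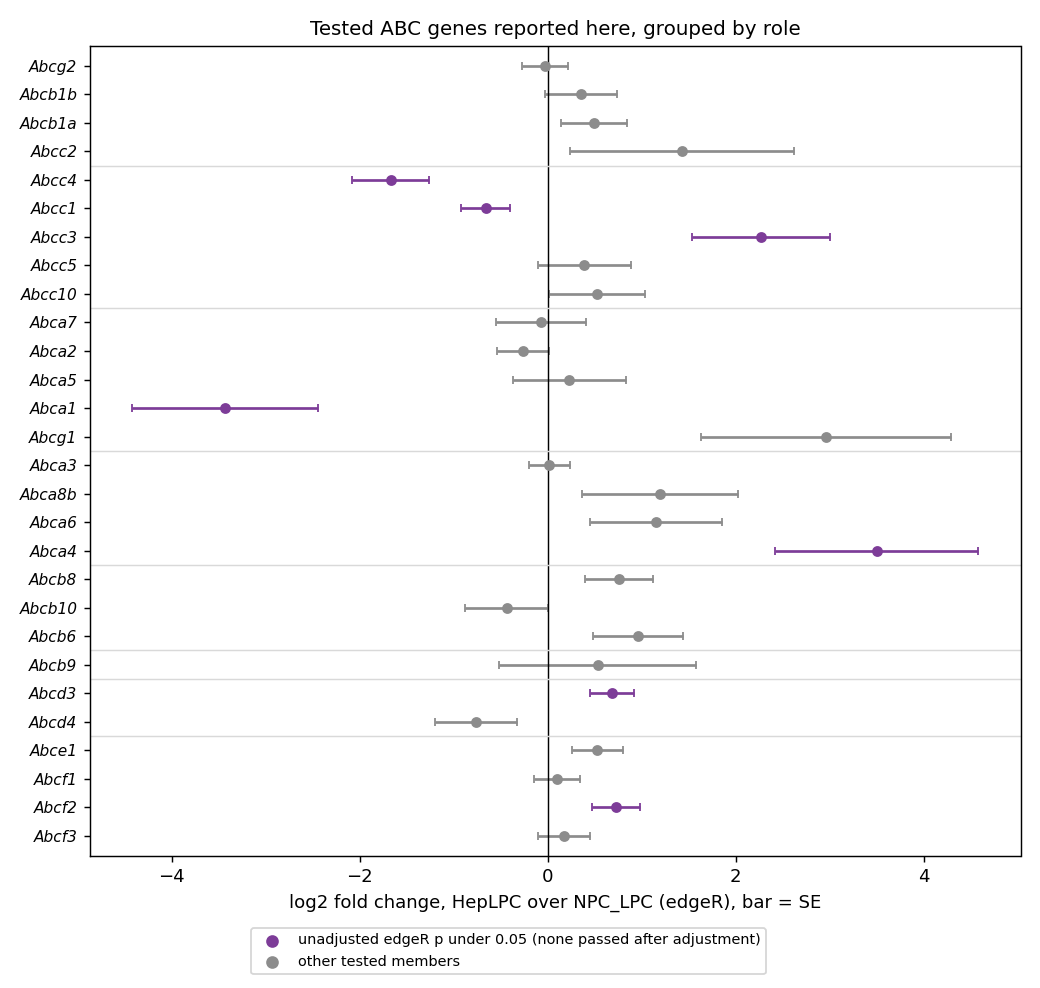
Log2 fold change of the tested ABC genes reported here, HepLPC over NPC_LPC (horizontal axis, log2 scale), with its SE as a bar, ordered by role from canalicular efflux at the top to the soluble ABCE and ABCF genes at the bottom. Most points lie within 1 of 0, and the 7 members with an unadjusted p under 0.05, none of which passed after adjustment over all genes, are coloured.

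FPKM, which scales fragments by transcript length and library size, allows levels of different genes to be compared. By mean FPKM over the 4 libraries, 12 members reached 10, and 24 reached 1. The summed FPKM of the 50 members was 485 and 412 in HepLPC replicates 1 and 2, against 375 and 413 in NPC_LPC replicates 1 and 2, so the family total overlapped between the groups. Abce1, a ribosome recycling factor, was the most abundant member in HepLPC by mean FPKM and the 2nd in NPC_LPC. Of the family's FPKM it took 25.3% and 20.9% in HepLPC replicates 1 and 2, against 19.1% and 18.1% in NPC_LPC replicates 1 and 2. Abcc4, the exporter MRP4, was the most abundant member in NPC_LPC and the 5th in HepLPC. Its share was 4.94% and 7.50% in HepLPC replicates 1 and 2, against 14.6% and 27.8% in NPC_LPC replicates 1 and 2, so the groups did not overlap. Abcc3, the exporter MRP3, went the other way, with 11.6% and 8.00% in HepLPC replicates 1 and 2, against 3.88% and 0.622% in NPC_LPC replicates 1 and 2. It was the 3rd most abundant member in HepLPC and the 11th in NPC_LPC. Below the leading members, neighbours in the order of levels were often closer than their spread. In HepLPC, Abcf2 at 50.9 and 49.1, Abcc3 at 56.1 and 33.0 and Abcf1 at 41.2 and 42.7 FPKM were not separated by rank, since Abcc3 spanned the others. In NPC_LPC, Abcc4 at 54.9 and 115 spanned Abce1 at 71.6 and 74.6 FPKM.

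**Figure D2:**
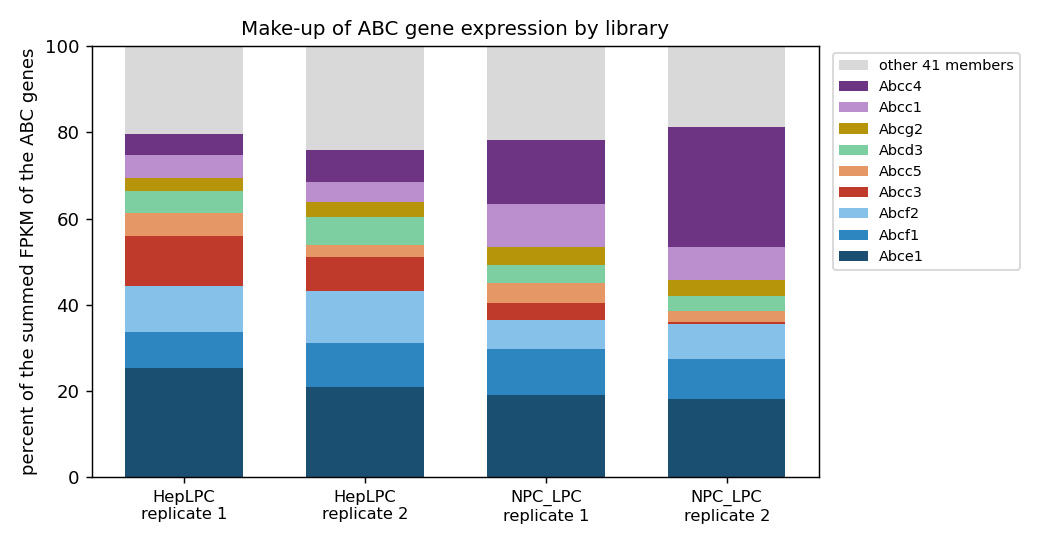
Share of the summed FPKM of the 50 ABC genes (vertical axis, percent) taken by the 9 leading members in each library, HepLPC on the left. Abcc4 takes 4.94% and 7.50% in the HepLPC libraries against 14.6% and 27.8% in the NPC_LPC libraries, while Abcc3 is the larger of the pair in HepLPC.

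The canalicular efflux genes split into a detected set and a nearly silent set. Of the 8 genes fixed for this role, Abcg2, Abcb1a, Abcb1b and Abcc2 were tested, 3 with a fitted value above 0, and none passed edgeR or DESeq2. Abcb11, the bile salt export pump, had 8 and 1 counts in HepLPC replicates 1 and 2, against 0 and 2 in NPC_LPC. Abcb4, the phosphatidylcholine floppase, had 10 and 8 counts in HepLPC and 11 and 4 in NPC_LPC. Abcg5 and Abcg8, which pair to export sterols, had at most 2 counts in any library. These canalicular transporters for bile salts, phosphatidylcholine and sterols were therefore at or near the floor in both groups.

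Abcg2, the breast cancer resistance protein that exports urate, porphyrins and drugs (chromosome 6, 58584491 to 58692451), had levels close together, at 43.0 and 38.8 CPM in replicates 1 and 2 of HepLPC, against 42.8 and 40.8 CPM in replicates 1 and 2 of NPC_LPC. The groups overlapped, and the 95% interval of the log2 fold change ran from -0.64 to 0.58. Abcc2, the canalicular conjugate pump MRP2 (chromosome 19, 43782308 to 43838332), was at 48.1 and 21.6 CPM in replicates 1 and 2 of HepLPC, against 24.7 and 1.24 CPM in replicates 1 and 2 of NPC_LPC. One NPC_LPC library was near the level of HepLPC replicate 2 and the other was 20.0-fold lower than its partner. The difference (log2 fold change 1.43, SE 1.19, edgeR adjusted p = 0.516) had an interval of -1.53 to 4.38. Without NPC_LPC replicate 1, which left 1 library in that group, the log2 fold change of Abcc2 was 4.83. Without NPC_LPC replicate 2 its log2 fold change was 0.50.

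Abcb1a and Abcb1b encode the mouse forms of P-glycoprotein, a drug efflux pump, and lie beside each other on chromosome 5 (Abcb1a at 8567091 to 8748575, Abcb1b at 8798147 to 8866314), followed by Abcb4. Abcb1b was at 96.0 and 57.6 CPM in replicates 1 and 2 of HepLPC, against 44.5 and 75.7 CPM in replicates 1 and 2 of NPC_LPC. Abcb1a was at 35.8 and 25.3 CPM in replicates 1 and 2 of HepLPC, against 17.3 and 26.0 CPM in replicates 1 and 2 of NPC_LPC. In both genes HepLPC replicate 1 was highest and NPC_LPC replicate 1 lowest, and the groups overlapped. The intervals of the log2 fold change were -0.59 to 1.30 for Abcb1b and -0.37 to 1.37 for Abcb1a. Per length, Abcb1b exceeded Abcb1a by 3.56 and 2.82 times in HepLPC and by 3.42 and 3.80 times in NPC_LPC (FPKM), a narrow range. Of the stretches of 50 bases in the longest coding transcript, 17.0% in Abcb1a and 18.3% in Abcb1b also occur in another gene, mostly in each other, so how reads divide between the pair is uncertain.

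The sequences before their RefSeq starts are shown because these neighbours are close copies that were both expressed, while Abcb4 beside them stayed near the floor. Each is the 250 bases before the start on the plus strand of GRCm38.p6, chr5:8566841-8567090 for Abcb1a and chr5:8797897-8798146 for Abcb1b. Capitals mark matches on either strand to GGGCGG (the GC box), CCAAT or TGACNNNGC (the core of the antioxidant response element), and no 2 matches overlap.
Abcb1a: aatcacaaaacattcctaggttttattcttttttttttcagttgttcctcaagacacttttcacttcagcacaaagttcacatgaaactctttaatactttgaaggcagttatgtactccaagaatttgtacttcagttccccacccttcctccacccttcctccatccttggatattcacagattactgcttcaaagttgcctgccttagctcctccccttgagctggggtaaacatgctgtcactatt
Abcb1b: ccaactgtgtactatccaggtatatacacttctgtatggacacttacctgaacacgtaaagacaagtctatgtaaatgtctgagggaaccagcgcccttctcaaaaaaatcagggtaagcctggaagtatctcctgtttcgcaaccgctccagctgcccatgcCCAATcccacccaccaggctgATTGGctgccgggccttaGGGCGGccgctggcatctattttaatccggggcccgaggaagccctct
Abcb1b held 1 GC box and 2 CCAAT matches in these letters and Abcb1a held none of the motifs. GC content was 40.4% in Abcb1a and 52.8% in Abcb1b. Over the 32851 such windows of all genes in the table, 32.7% held GGGCGG, 33.8% CCAAT and 10.2% TGACNNNGC. Of the 45 such windows of ABC genes, 20, 13 and 4 held these motifs in that order. Counted by gene, these were 17, 13 and 3 of the 38 ABC genes with a window. GENCODE M21 starts Abcb1a at 8660077, far downstream of the RefSeq start at 8567091. The Abcb1a window shown is therefore not next to the GENCODE start, and which start these cells used was not tested. An exon of Gm5106 reaches into the Abcb1b window.

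The multidrug resistance-associated protein (MRP) genes of subfamily C included Abcc3 and Abcc4, which differed in opposite directions. Of the 7 fixed for basolateral and other MRP efflux, 5 were tested, 3 with a fitted value above 0 and 2 below. None passed edgeR, and DESeq2 called Abcc3 higher and Abcc4 lower in HepLPC. Abcc3 encodes MRP3, which exports glucuronides and bile salts to the blood (chromosome 11, 94343295 to 94393017). It was at 344 and 201 CPM in replicates 1 and 2 of HepLPC, against 93.2 and 19.9 CPM in replicates 1 and 2 of NPC_LPC. Both HepLPC libraries lay above both NPC_LPC libraries, which were 4.68-fold apart. Its mean was 4.82-fold higher in HepLPC (log2 fold change 2.27, SE 0.73, edgeR adjusted p = 0.168; DESeq2 adjusted p = 0.00703). Leaving out NPC_LPC replicate 1 gave Abcc3 a log2 fold change of 3.79, and leaving out NPC_LPC replicate 2 gave it 1.55. Each setting left 1 library in NPC_LPC. Over all its alternatives, DESeq2 and limma included, the adjusted p ran from 0.00703 to 0.384.

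Abcc4 encodes MRP4, which exports cyclic nucleotides, prostaglandins and bile salts (chromosome 14, 118482692 to 118707856). It was at 262 and 325 CPM in replicates 1 and 2 of HepLPC, against 609 and 1259.7 CPM in replicates 1 and 2 of NPC_LPC. All HepLPC values were below all NPC_LPC values. By mean it was 3.18-fold lower in HepLPC (log2 fold change -1.67, SE 0.41, edgeR adjusted p = 0.112; DESeq2 adjusted p = 0.00160). Over the same alternatives the adjusted p ran from 0.00160 to 0.306. With edgeR its log2 fold change was -2.08 without NPC_LPC replicate 1 and -1.05 without NPC_LPC replicate 2, each with 1 NPC_LPC library left. The median log2 fold change of all tested genes on chromosome 14 was -0.42, and Abcc4 differed from it by -1.25. With DESeq2, Abcc4 was also called without HepLPC replicate 2 and without NPC_LPC replicate 1, but not when HepLPC replicate 1 or NPC_LPC replicate 2 was left out. By the same tool, Abcc3 was called in the 3 settings that kept HepLPC replicate 1.

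The 250 bases before one of the 2 RefSeq starts of Abcc4 are shown because this gene was the most abundant member in NPC_LPC by mean FPKM. They lie at chr14:118706220-118706469 on GRCm38.p6, minus strand, with matches to the same motifs in capitals.
Abcc4: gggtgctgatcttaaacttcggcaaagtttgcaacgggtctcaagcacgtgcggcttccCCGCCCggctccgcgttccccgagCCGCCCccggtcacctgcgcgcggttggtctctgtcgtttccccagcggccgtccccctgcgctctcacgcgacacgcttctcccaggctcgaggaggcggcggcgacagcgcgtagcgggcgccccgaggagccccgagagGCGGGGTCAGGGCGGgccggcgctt
The window held 3 GGGCGG matches and 1 TGACNNNGC match, which ends where a GC box begins. Its GC content was 72%.

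Within a library, Abcc3 and Abcc4 exchanged rank. The ratio of Abcc3 to Abcc4 in FPKM was 2.35 and 1.07 in HepLPC replicates 1 and 2, against 0.265 and 0.0224 in NPC_LPC replicates 1 and 2. This pair was chosen after its values were seen. Abcc1 encodes MRP1, an exporter of glutathione conjugates (chromosome 16, 14361453 to 14474878), and was at 177 and 134 CPM in replicates 1 and 2 of HepLPC, against 269 and 224 CPM in replicates 1 and 2 of NPC_LPC. The groups did not overlap, with a mean 1.58-fold lower in HepLPC (log2 fold change -0.66, SE 0.26, edgeR adjusted p = 0.221). Abcc5, encoding MRP5, was at 344 and 148 CPM in replicates 1 and 2 of HepLPC, against 244 and 132 CPM in replicates 1 and 2 of NPC_LPC. Replicate 1 was the higher one in both groups, and the interval of the log2 fold change was -0.84 to 1.61. Abcc10 was between 6.14 and 17.1 CPM in the 4 libraries. Abcc6, an ATP-release transporter of hepatocytes, had 1 and 8 counts in HepLPC and no count in NPC_LPC, and Abcc12 had at most 3 counts. The sulfonylurea receptor genes Abcc8 and Abcc9, subunits of potassium channels, were at or under 3 counts throughout.

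**Figure D3:**
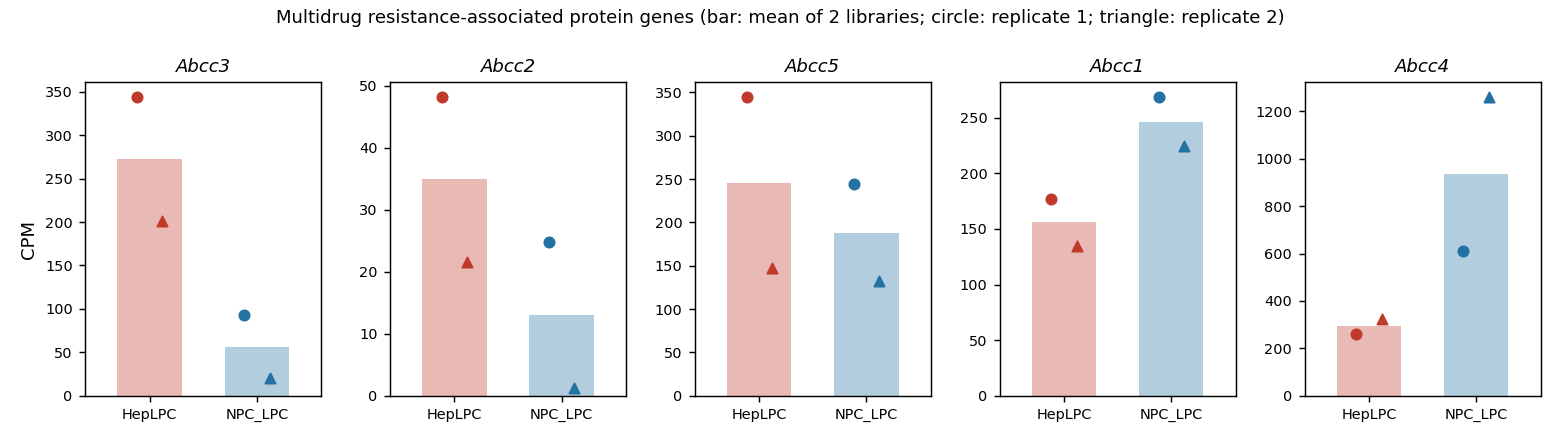
CPM of 5 MRP genes (vertical axes, each from 0), with HepLPC on the left and NPC_LPC on the right of each panel. Bars are means of 2 libraries, and points are the libraries. The groups do not overlap for Abcc3, Abcc1 and Abcc4 and overlap for Abcc2 and Abcc5.

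Among transporters of cholesterol and other sterol lipids, Abca1 had the largest fitted difference of the 5 tested, and DESeq2 called it lower in HepLPC. It loads cholesterol onto apolipoprotein A-I and is induced by the sterol-sensing liver X receptors (chromosome 4, 53030789 to 53159988). Its level was low, 0.722 and 0.225 CPM in replicates 1 and 2 of HepLPC, against 8.17 and 2.18 CPM in replicates 1 and 2 of NPC_LPC, with 13 and 4 counts in HepLPC and 149 and 44 in NPC_LPC. Both HepLPC libraries lay below both NPC_LPC libraries, by mean 10.9-fold (log2 fold change -3.43, SE 0.99, edgeR adjusted p = 0.141; DESeq2 adjusted p = 0.0111). The median of all tested genes on chromosome 4 was -0.61 in log2 fold change, and Abca1 differed from it by -2.82. DESeq2 no longer called it without HepLPC replicate 2 or without NPC_LPC replicate 1, where the edgeR log2 fold changes were -2.83 and -2.17. Abcg1, which moves cholesterol to high-density lipoprotein, had 13 and 10 counts in HepLPC against 0 and 3 in NPC_LPC, a ratio of 8.24 (exact binomial 95% interval 2.49 to 42.9, counting error only; edgeR adjusted p = 0.266).

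The better expressed members of the role overlapped between the groups. Abca2, of endosomes and lysosomes, was at 44.0 and 51.5 CPM in the HepLPC libraries and 48.2 and 66.4 CPM in the NPC_LPC libraries, replicates 1 and 2 in order. Abca7, a phospholipid transporter, was at 26.9 and 62.3 CPM in the HepLPC libraries and 58.5 and 35.1 CPM in the NPC_LPC libraries, where replicate 2 was high in HepLPC and replicate 1 in NPC_LPC. Their log2 fold changes had intervals of -0.95 to 0.42 and -1.25 to 1.11. Abca5 ranged from 8.11 to 23.9 CPM, both ends in HepLPC.

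Of the 12 other members of subfamily A, 4 were tested, each with a fitted value above 0, and none passed edgeR or DESeq2. Abca3, the lamellar body lipid transporter of the lung (chromosome 17, 24351921 to 24410204), had levels close together, at 71.9 and 76.4 CPM in replicates 1 and 2 of HepLPC, against 70.8 and 75.7 CPM in replicates 1 and 2 of NPC_LPC. The groups overlapped, and the interval of its log2 fold change was -0.53 to 0.56. Abca8b, on the chromosome 11 cluster with Abca5, Abca6, Abca8a and Abca9, was at 10.4 and 8.22 CPM in replicates 1 and 2 of HepLPC, against 6.97 and 1.19 CPM in replicates 1 and 2 of NPC_LPC. All HepLPC values exceeded all NPC_LPC values, and NPC_LPC replicate 2 was 5.86-fold below its partner (log2 fold change 1.20, SE 0.83, edgeR adjusted p = 0.442). Without that library the log2 fold change was 0.42. Abca4, the retinoid transporter of photoreceptors, had 12 and 32 counts in HepLPC, against 1 and 3 in NPC_LPC. That ratio of 11.8 had an exact binomial 95% interval of 4.30 to 45.3 for counting error alone, with an edgeR adjusted p of 0.156. Abca6 was at 7.94 and 2.59 CPM in the HepLPC libraries and 2.74 and 1.98 CPM in the NPC_LPC libraries. The remaining 8, Abca8a, Abca9, Abca12, Abca13, Abca14, Abca15, Abca16 and Abca17, had at most 23 counts in a library, and Abca15 and Abca16 had none.

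**Figure D4:**
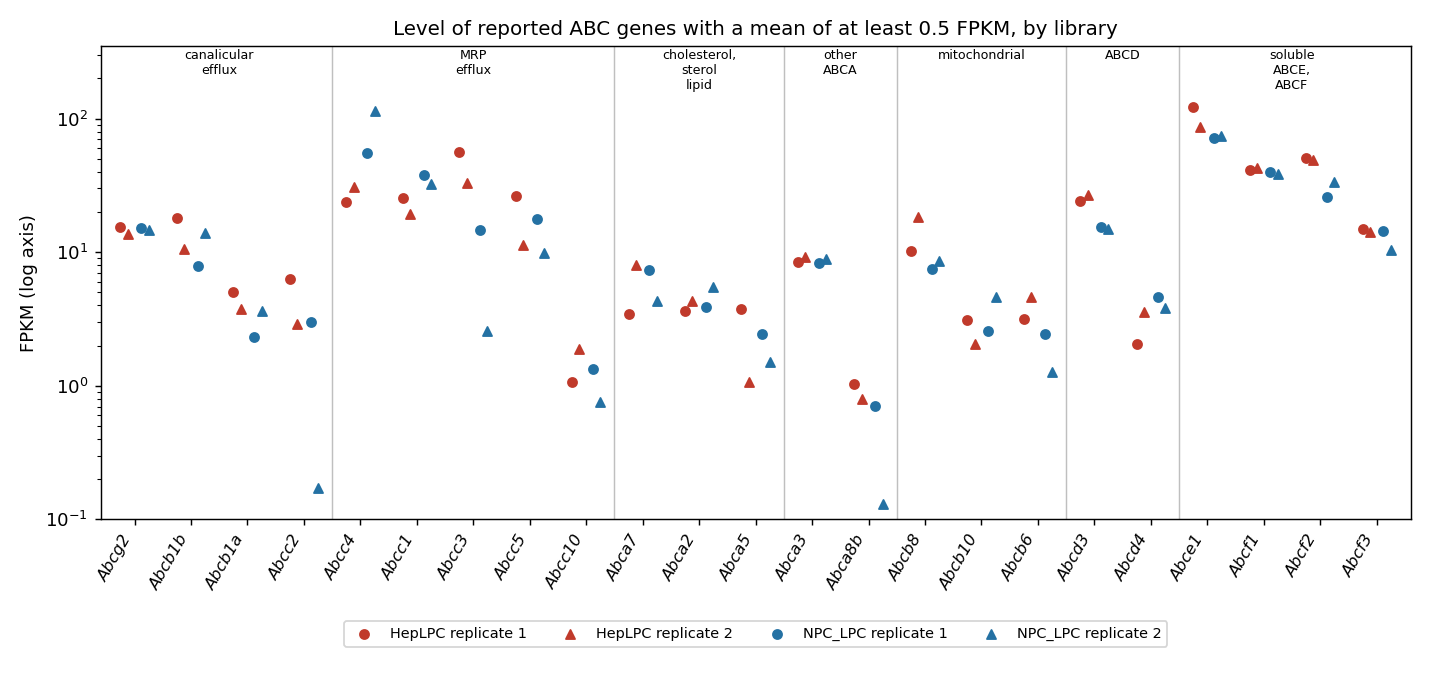
FPKM of the ABC genes reported here that had a mean of at least 0.5 (vertical log axis) in the 2 HepLPC libraries (left in each column) and the 2 NPC_LPC libraries, grouped by role. Abce1 and Abcc4 have the highest points, and the points of Abcg2 and Abca3 nearly coincide.

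The 4 mitochondrial half-transporter genes were all tested, and none passed edgeR or DESeq2. Their summed level was 108 and 130.3 CPM in HepLPC replicates 1 and 2, against 93.1 and 84.3 CPM in NPC_LPC replicates 1 and 2, higher in both HepLPC libraries. Abcb8, a subunit linked to mitochondrial iron and potassium handling (chromosome 5, 24393681 to 24412759), was at 28.1 and 50.5 CPM in replicates 1 and 2 of HepLPC, against 21.8 and 24.8 CPM in replicates 1 and 2 of NPC_LPC. The groups did not overlap, and HepLPC replicate 2 alone was far above the rest. The gene did not pass edgeR (log2 fold change 0.75, SE 0.36, edgeR adjusted p = 0.289). Abcb6, a porphyrin-binding transporter, was at 9.50 and 14.0 CPM in the HepLPC libraries and 7.79 and 4.31 CPM in the NPC_LPC libraries. In GENCODE M21, 90.3% of the 50-base stretches of its longest coding transcript also lie in the same-strand gene Gm29253. Gm29253 is not among the deposited gene symbols, so whether it took reads from Abcb6 in the counting is not known. Abcb10, which acts in haem synthesis, was at 11.5 and 8.22 CPM in the HepLPC libraries and 9.54 and 17.1 CPM in the NPC_LPC libraries, and the groups overlapped.

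Of the 4 subfamily D genes, 3 were tested and none passed edgeR or DESeq2. Abcd3 encodes a peroxisomal half-transporter of branched-chain acyl-CoA and bile acid intermediates (chromosome 3, 121758904 to 121815302), and was at 82.1 and 98.3 CPM in replicates 1 and 2 of HepLPC, against 58.1 and 54.3 CPM in replicates 1 and 2 of NPC_LPC. The libraries of each group were close together, at 90.2 ± 11.4 CPM for HepLPC and 56.2 ± 2.71 CPM for NPC_LPC (SD, n = 2 each). The gene was 1.61-fold higher in HepLPC by mean but did not pass after adjustment (log2 fold change 0.68, SE 0.23, edgeR adjusted p = 0.179, DESeq2 adjusted p = 0.132). Abcd4, which acts in lysosomal vitamin B12 export, was at 7.50 and 14.5 CPM in replicates 1 and 2 of HepLPC, against 21.2 and 16.1 CPM in replicates 1 and 2 of NPC_LPC, lower in both HepLPC libraries (log2 fold change -0.76, SE 0.44, edgeR adjusted p = 0.363). Abcd2, another peroxisomal half-transporter, had at most 13 counts in any library. The peroxisome membrane import genes Pex19, Pex3 and Pex16, fixed as a list beside subfamily D, had log2 fold changes of 0.17, 0.061 and 0.15, and none passed edgeR or DESeq2. Among the lysosomal or other members of subfamilies B and G, Abcb9, a lysosomal peptide transporter, had 3 to 15 counts. Abcb5 had at most 1, and Abcg3, a rodent relative of Abcg2, none.

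The 4 soluble genes of subfamilies E and F all had a fitted value above 0. Their summed FPKM was 229.6 and 192 FPKM in HepLPC replicates 1 and 2, against 152 and 157 FPKM in NPC_LPC replicates 1 and 2, with every HepLPC library above every NPC_LPC library. None passed edgeR or DESeq2. Abce1, which splits ribosomes after termination (chromosome 8, 79683442 to 79711740), was at 563 and 406 CPM in replicates 1 and 2 of HepLPC, against 342 and 331 CPM in replicates 1 and 2 of NPC_LPC. The groups did not overlap, and HepLPC replicate 1 was the highest library (log2 fold change 0.53, SE 0.27, edgeR adjusted p = 0.316). Abcf2 (chromosome 5, 24565341 to 24577467) was at 252 and 219 CPM in replicates 1 and 2 of HepLPC, against 123 and 162 CPM in replicates 1 and 2 of NPC_LPC. Its mean was 1.66-fold higher in HepLPC with no overlap (log2 fold change 0.73, SE 0.26, edgeR adjusted p = 0.188; DESeq2 adjusted p = 0.110). Abcf1, a factor of translation initiation, was at 351 and 284 CPM in replicates 1 and 2 of HepLPC, against 289 and 305 CPM in replicates 1 and 2 of NPC_LPC, with overlap and an interval of -0.51 to 0.70 on the log2 scale. Abcf3 was at 51.5 and 50.6 CPM in HepLPC and 52.9 and 37.8 CPM in NPC_LPC.

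The 250 bases before one of the 2 RefSeq starts of Abcf2 are shown for contrast with Abcc4, since the genes differed in opposite directions. They lie at chr5:24577468-24577717 on GRCm38.p6, minus strand, with motif matches in capitals.
Abcf2: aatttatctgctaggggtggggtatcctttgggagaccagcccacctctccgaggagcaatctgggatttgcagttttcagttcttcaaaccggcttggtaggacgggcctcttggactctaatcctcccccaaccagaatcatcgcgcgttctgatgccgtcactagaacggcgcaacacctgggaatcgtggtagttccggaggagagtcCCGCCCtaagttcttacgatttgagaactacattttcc
The window held 1 GGGCGG match and neither other motif, at a GC content of 52.8%.

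In all, 20 members fell below the edgeR count filter. Of these, 11 had at most 3 counts in every library and 4 of the 11 had none, and the other 9 reached 4 to 23 counts. DESeq2 tested 3 of them, Abcb4, Abca9 and Abcd2, and called none (DESeq2 adjusted p = 0.938, 0.600 and 0.908), and edgeR without the filter called 0 of 46 members. The exact binomial 95% interval of the summed count ratio, HepLPC over NPC_LPC, excluded 1 for Abca8a, Abca9, Abcc6 and Abcb11 among these 20. That interval covers counting error and not the spread between libraries. It was not computed for Abcb4, for the members with no count or for genes outside the family. No share over all low-count genes can therefore be set beside it. Abca8a had 7 and 4 counts in HepLPC and 0 and 1 in NPC_LPC (interval 1.72 to 509). Abca9 had 3 and 1 counts in HepLPC and 23 and 0 in NPC_LPC (interval 0.0470 to 0.547), so that a single NPC_LPC library held all counts of that group. For Abcc6, with no count in NPC_LPC, the lower bound was 2.12, and for Abcb11 the interval was 1.001 to 46.0. Over the 27 members with a mean of at least 1 CPM, the higher library of a group exceeded the lower by a median of 1.41 times in HepLPC and 1.41 times in NPC_LPC, where all genes of that level had medians of 1.32 and 1.27. In each group 6 members differed at least 2-fold between the 2 libraries. Exons of Abca3, Abcb10 and Abcb1a overlap a gene on the opposite strand over 9.75%, 10.3% and 10.1% of their bases. None of the overlapping genes is among the deposited gene symbols. The counts of these members may depend on a strand setting that is not given. The deposited FPKM and counts were close in proportion for these 27: the FPKM per CPM of a gene, after removing each library's median, differed by at most 1.28 times between libraries.

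Among the related genes outside the naming rule, Tap1 and Tap2, the ABC subunits of the peptide transporter that loads class I histocompatibility molecules, had low levels in HepLPC. Tap1 was at 8.44 and 9.58 CPM in the HepLPC libraries and 35.7 and 63.0 CPM in the NPC_LPC libraries, replicates 1 and 2 in order. Tap2 was at 0.611 and 1.58 CPM in the HepLPC libraries and 15.1 and 27.1 CPM in the NPC_LPC libraries. Both were lower in HepLPC by DESeq2 and missed the edgeR threshold (edgeR adjusted p = 0.0656 and 0.0623). Cftr, the chloride channel of bile duct cells, had 25 and 2 counts in HepLPC and 2 and 3 in NPC_LPC. Of 12 carriers that work beside the canalicular pumps, 8 had at most 3 counts in every library, including the bile salt uptake carrier Slc10a1 and the organic anion carriers Slco1a1, Slco1a4, Slco1b2 and Slco2b1. The tested carriers were Slc10a2 and Atp8b1, with 0 called by edgeR or DESeq2 and 1 at an unadjusted p under 0.05. Slc10a2, the apical bile salt carrier, was at 7.83 and 2.03 CPM in the HepLPC libraries and 2.03 and 0 CPM in the NPC_LPC libraries. Atp8b1, a phospholipid flippase, was at 0.833 and 3.21 CPM in the HepLPC libraries and 0.439 and 0.0990 CPM in the NPC_LPC libraries. Slc51a had 12 and 6 counts in HepLPC and none in NPC_LPC.

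Of 15 transcription factors known to act on ABC genes, 11 were tested, 6 with a fitted value above 0 and 5 below. None passed edgeR, and 6 had an unadjusted p under 0.05, against 21.9% of all tested genes. Over all genes it tested, DESeq2 called 11.7%, with 5.39% higher and 6.27% lower in HepLPC. DESeq2 called 4 higher, among them Hnf4a, Nr1h4 (the bile acid receptor) and Nr1h3 (a liver X receptor), and 1 lower, Ahr, in HepLPC, named here after their values were seen. Nfe2l2, the antioxidant regulator, was at 717 and 434 CPM in the HepLPC libraries and 734 and 702 CPM in the NPC_LPC libraries. Srebf2, the sterol regulator, was at 236 and 410.2 CPM in the HepLPC libraries and 161 and 159 CPM in the NPC_LPC libraries. Ahr, the dioxin receptor, was at 96.1 and 99.9 CPM in the HepLPC libraries and 392 and 137 CPM in the NPC_LPC libraries. Of 6 genes known as liver X receptor targets or partners, 5 had a fitted value above 0. DESeq2 called 3 higher (Apoe, Scd1 and Nr1h3) and edgeR 0, with 3 at an unadjusted p under 0.05. The same shares over all genes stand beside these counts. Nr1h3 and Srebf1 are counted in this list and among the transcription factors. Apoe, the apolipoprotein E gene, was at 20.5 and 17.5 CPM in the HepLPC libraries and 2.30 and 1.14 CPM in the NPC_LPC libraries. Scd1, a fatty acid desaturase gene, was at 225 and 179 CPM in the HepLPC libraries and 7.35 and 28.9 CPM in the NPC_LPC libraries. Of the tested members that are also such targets, Abca1 had a fitted value below 0 and Abcg1 one above 0 (2.96), neither past edgeR. The sterol exporter genes Abcg5 and Abcg8, with at most 2 counts in any library, were not tested. Of 9 measured genes for apical scaffolds and trafficking, 8 were tested and edgeR called 0, with 1 at an unadjusted p under 0.05. DESeq2 called Msn lower, at 1561 and 1135 CPM in the HepLPC libraries and 2326 and 3748 CPM in the NPC_LPC libraries. Ezr was at 1827 and 1388 CPM in the HepLPC libraries and 1198 and 1025 CPM in the NPC_LPC libraries, and Slc9a3r1 at 391 and 334 CPM in the HepLPC libraries and 310.3 and 189 CPM in the NPC_LPC libraries, all 3 encoding links between membrane proteins and actin.

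Sums over marker lists of other cell types are given as values. For the 10 stellate cell and myofibroblast markers, the sum was 548 and 688 CPM in HepLPC replicates 1 and 2. In NPC_LPC replicates 1 and 2 it was 2582 and 3685 CPM. Nearly all of it was Fbln2, while the defining markers Lrat and Pdgfrb had at most 3 counts in every library. DESeq2 called 1 of the 10 lower in HepLPC, Fbln2, and 1 higher, Reln. Reln was at 8.77 and 5.41 CPM in the HepLPC libraries and 0.494 and 1.14 CPM in the NPC_LPC libraries. The 8 bile duct markers had a sum of 4774 and 2214 CPM in HepLPC replicates 1 and 2, against 9504 and 4783 CPM in NPC_LPC replicates 1 and 2, so that the nearest libraries of the groups had almost the same sum. Spp1 was at 3024 and 904 CPM in the HepLPC libraries and 8939 and 4201 CPM in the NPC_LPC libraries, lower in HepLPC by DESeq2. In the other direction Krt19 was higher in HepLPC by DESeq2, at 1434 and 885 CPM in the HepLPC libraries and 111 and 275 CPM in the NPC_LPC libraries, and Krt7 was at 103 and 165 CPM in the HepLPC libraries and 1.43 and 17.2 CPM in the NPC_LPC libraries. The 10 hepatocyte markers had a sum of 4419 and 5228 CPM in HepLPC replicates 1 and 2, against 3176 and 1723 CPM in NPC_LPC replicates 1 and 2, most of it Apob. DESeq2 called 2 of the 10 higher in HepLPC, Hnf4a and Ttr, and 0 lower. Ttr had 22 and 27 counts in the HepLPC libraries and 0 and 1 in the NPC_LPC libraries. Alb had 41 and 2 counts in the HepLPC libraries and 2 and 3 in the NPC_LPC libraries. Serpina1a and Cps1 had at most 4 counts in any library. Cyp2e1, Cyp3a11 and Tat, of mature hepatocytes, had no count. The 8 endothelial markers together reached at most 9.89 CPM, with Pecam1, Lyve1 and Clec4g at or under 3 counts, and the 8 leukocyte markers 15.3 to 82.2 CPM, mostly Cd68, with Adgre1, Clec4f and Cd3e at or under 3. The 6 mesothelial markers had a sum of 202 and 822 CPM in HepLPC replicates 1 and 2, against 613 and 232 CPM in NPC_LPC replicates 1 and 2. The part of these cell types in the ABC values was not tested.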

How the data were processed

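RNA was sequenced from 2 HepLPC and 2 NPC_LPC libraries, paired-end and strand-keeping per the labels' protocols. The submitters' processing notes list mm10 as the build and, as tools, HISAT2, HTSeq, Cufflinks, DESeq and Trimmomatic, with no roles. For versions, annotation and the strand setting of counting, nothing is given in the sources used here. The authors deposited a read count and an FPKM value for each gene symbol in each library. Counts were whole numbers and were used for the main tests, and the deposited FPKM for levels between genes and for alternatives. Of 21878 rows, 6043 had no count in any library, and 2 repeat the symbol of another. Genes were tested on the whole table with edgeR 4.0.16 (R 4.3.3) after TMM and filterByExpr, with group as the only term, Benjamini-Hochberg adjustment over all tested genes, a threshold of 0.05 and SE from the F statistic. The edgeR function was tested on simulated data. Alternatives used DESeq2 1.42.0, limma 3.58.1 (voom, or log2(FPKM + 1) and log2(FPKM + 0.1)), other scalings and filters, a replicate block and each library left out. Positions and windows before starts are from RefSeq (GRCm38.p6), where all 50 members matched by symbol and 38 had a window. Overlaps and shared 50-base stretches are from GENCODE M21 on the same assembly.

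A few genes are counted in the totals but not reported here by name. The members and gene lists were chosen with earlier results of these data known. Members were named with full values if they passed a test, had an unadjusted edgeR p under 0.05, were among the 2 most abundant of their role by FPKM, or belonged to canalicular efflux; other members were named after their values were seen. From lists without members, genes called or else the most abundant were named, and others were named after their values were seen. No pairing of the same replicate numbers between the groups is stated. The deviations of the replicates numbered 1 from their group means had a correlation of -0.046 across 12332 genes. With 2 libraries per group, this value cannot show whether libraries of the same number were prepared together.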

Additional observations from a re-analysis of the deposited data

How the results depend on the processing

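The count of 0 ABC genes past edgeR held under the other scalings, filters and FPKM tests, with limma-voom and with the replicate block. DESeq2 called 3, and leaving out each library gave 0 to 3, the 3 being Abcc2, Abcc3 and Abcc4 without NPC_LPC replicate 1. DESeq2 itself called 1 to 4 members with a library left out, an alternative chosen after seeing the data: 1, Abca1, without HepLPC replicate 1, and 4, Abca8b, Abcc2, Abcc3 and Abcc4, without NPC_LPC replicate 1. Over all genes, the 53 calls became 593 without a filter, 1523 with DESeq2, 5 with limma-voom, 136 with the replicate block, 111 with limma on log2(FPKM + 1) at a mean of at least 0.5, 0 with the same test unfiltered, and 0 to 377 with a library left out (0 without either HepLPC library, 107 without NPC_LPC replicate 2). The cause was not tested. The median log2 fold change of the tested members was 0.18 with unfiltered log2(FPKM + 1), where the pseudocount shrinks low genes, and 0.094 to 0.57 with a library left out.

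Of the values of 21 named genes under 15 alternatives each, where a value was given, 292 kept their direction and their side of the threshold, 6 came to pass it and 9 changed sign, each with a library left out and none past a threshold: Abca3 (-0.027 to 0.074), Abca7 (-0.80 to 0.42), Abcb1b (-0.044 to 0.79), Abcb9 (-0.23 to 2.20), Abcf1 (-0.052 to 0.24) and Abcg2 (-0.096 to 0.042). Subtracting the median of the chromosome, an alternative added after seeing the data, turned no sign. Where a group was left with 1 library, that library was assumed to vary like the other group. For the 11 members with at most 3 counts in every library no direction is given.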
